A study of Mus musculus with 6 samples.

Results

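The 9 genes described here encode proteins that crosslink actin, line the thin filament or anchor it at the adhesion plaque of smooth muscle: Flna, Flnc, Actn1, Synpo2, Tpm1, Tpm2, Cald1, Tln1 and Vcl. They were taken by gene symbol from a table of 22956 genes, all 9 were found, and all 9 were among the 16654 genes with enough counts to be tested. The RNA of 6 aortic samples, given in the labels as smooth muscle cells, came from C57B6 mice that were 30 weeks old and had eaten a western diet, rich in fat and cholesterol, for 20 weeks. In the miR-21 knockout group (genotype miR-21fl/flmTmG/Myh11ERT2, n = 3) miR-21 is flanked by loxP sites, and the Myh11 promoter, active in smooth muscle, drives an inducible recombinase that can remove it. The WT group (genotype WT/mTmG/ Myh11ERT2, n = 3) carried the same Myh11ERT2 driver and the same mTmG reporter, a fluorescent marker of recombination, with an unfloxed miR-21 gene. Deletion through that driver is limited to Myh11-expressing cells, so other cells of the aorta keep the microRNA. The labels used here do not say whether or when the recombinase was activated, so knockout means the labelled genotype. No label used here states that the replicates are separate animals, so the p-values measure the spread between these samples, which may be technical.

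In smooth muscle, actin filaments are gathered by crosslinkers such as filamin and alpha-actinin, coated along their length by tropomyosin and caldesmon, and tied to the membrane at dense plaques, where talin binds integrins and vinculin reinforces the link. These proteins carry the force of contraction to the matrix. Many of their genes are driven by serum response factor and its coactivator myocardin. Tpm1 was reported as a target of miR-21 in human breast cancer cells, which is why its message is of interest in tissue without the microRNA. The question was whether these messages differ between aortic smooth muscle with a deletable and with an intact miR-21 gene after the same diet.

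Values are in CPM, estimated counts divided by the TMM-adjusted size of each library and put on a common scale, so that levels can be compared between libraries. All 9 log2 fold changes, knockout over WT, were above 0, against 49.4% of all genes tested and 52.4% of the 5360 abundant genes (mean log2 CPM of at least 5). By mean level the 9 ranked from 4 (Flna) to 674 (Flnc) among the genes tested, so most of the abundant genes lay below them. The median log2 fold change of the 9 was 0.28, against -0.002 over all genes tested, and the 9 values ran from 0.06 for Tpm1 to 0.46 for Tln1. The 3 largest belonged to the plaque gene Tln1 and to the filamins Flnc and Flna, and the 2 smallest to the tropomyosins. A positive sign was not particular to these genes. All 8 smooth muscle markers named further below were also above 0, from 0.05 to 0.29 with a median of 0.13. None of the 9 passed the threshold of 0.05 for the adjusted p of edgeR's quasi-likelihood test, which called 0% of all genes tested. By edgeR's unadjusted p, with the same threshold, 3 of the 9 were higher in the knockout (Tln1, Flna and Flnc) and 0 were lower, against 3.95% higher and 2.01% lower over all genes tested and 6.94% higher among the abundant genes. That count of higher genes was 1 when knockout 2, knockout 3, WT 1 or WT 3 was left out. It was 4 without knockout 1, 5 without WT 2, and 1 with upper-quartile scaling. Over all genes tested, the same count was 414 of 16932 without knockout 2 and 440 of 16995 without knockout 3. It was 713 of 17144 without WT 1 and 491 of 16990 without WT 3. It was 769 of 17158 without knockout 1, 798 of 17242 without WT 2, and 538 of 16654 with upper-quartile scaling. DESeq2's Wald test called Tln1 alone among the 9, and 0.438% of all genes tested. The tests were those of the whole table, and the genes share libraries, so the 9 are not 9 separate observations.

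**Figure D1:**
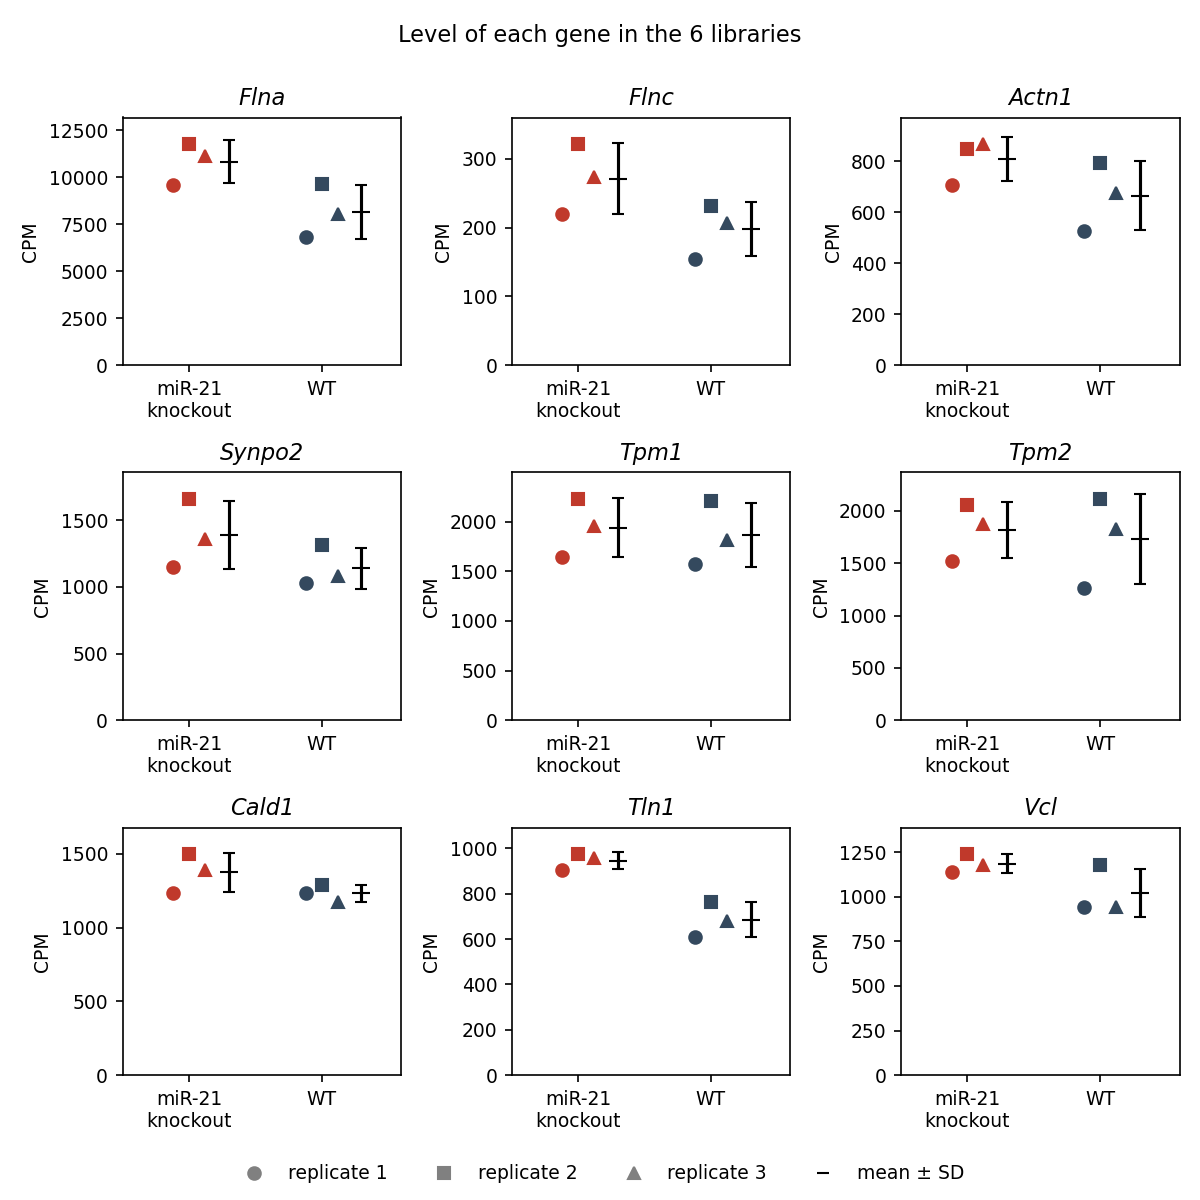
Level of each gene (y axis, CPM, starting at 0) in the 3 miR-21 knockout libraries (red) and the 3 WT libraries (dark blue). Marker shapes give the replicate number and black bars the mean ± SD. The groups are apart for Tln1 (903 to 975 CPM in the knockout, 611 to 764 CPM in WT) and overlap for the other 8 genes.

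Among the crosslinkers, Flna encodes filamin A, a large dimer that joins actin filaments at wide angles and links them to integrins. Flna (chrX:74223461-74249820, minus strand, mm10) had 9582, 11763 and 11143 CPM in knockout 1, 2 and 3, against 6791, 9622 and 8052 CPM in WT 1, 2 and 3. WT 1 was the lowest library, and knockout 1 lay level with WT 2, so the groups touched. The means were 10829 ± 1124 CPM in the knockout and 8155 ± 1418 CPM in WT (SD, n = 3 each). The log2 fold change was 0.41 ± 0.17 (SE), a 1.33-fold ratio, with an unadjusted p of 0.0451 and an adjusted p of 0.830 in edgeR. The Flna value of WT 3 was deposited with 3 digits only, which leaves up to 0.403% of rounding, far less than the spread between libraries.

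Flnc encodes filamin C, the filamin best known from striated muscle. Flnc (chr6:29433256-29461883, plus strand) had 219.8, 322 and 273 CPM in knockout 1, 2 and 3, against 155, 231 and 207 CPM in WT 1, 2 and 3. The order of the libraries was that of Flna within WT, and knockout 1 again lay below WT 2. The log2 fold change was 0.46 ± 0.19 (SE), with an unadjusted edgeR p of 0.0474 and an adjusted p of 0.831. The difference between Flnc and Flna within a library was -5.45, -5.19 and -5.35 in knockout 1, 2 and 3 and -5.45, -5.38 and -5.28 in WT 1, 2 and 3 on the log2 scale, so the balance of Flna and Flnc overlapped between the groups. Of the 9 tested markers of striated muscle, 6 had log2 fold changes above 0 and 3 below: Acta1 at -0.46, Des at -0.45 and Tnnt2 at -0.27. The heart myosin gene Myh6 had a mean of 0.413 CPM in the knockout and 0.325 CPM in WT, and Tnni3 had 0.633 CPM in the knockout and 0.361 CPM in WT. The cardiac actin gene Actc1 had 3.45 ± 1.49 CPM in the knockout and 1.29 ± 0.280 CPM in WT (SD, n = 3 each), with an unadjusted edgeR p of 0.0066 and an adjusted p of 0.780. Tnnt2 was the highest of the heart genes, with 9.14, 28.9 and 8.45 CPM in knockout 1, 2 and 3 and 18.9, 23.0 and 14.1 CPM in WT 1, 2 and 3. The part of such cells in the Flnc values was not tested.

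Actn1 encodes alpha-actinin-1, the crosslinker that holds parallel filaments in dense bodies and plaques. Actn1 (chr12:80167547-80260371, minus strand) had 709, 849 and 868 CPM in knockout 1, 2 and 3, against 525, 794 and 678 CPM in WT 1, 2 and 3. Knockout 1 lay between WT 3 and WT 2. The log2 fold change was 0.28 ± 0.16 (SE) with an adjusted p of 0.859 in edgeR, and it was 0.14 without WT 1 and 0.42 without WT 2. Synpo2 encodes synaptopodin-2 (myopodin), a partner of alpha-actinin and filamin that bundles actin. Synpo2 (chr3:123076519-123236149, minus strand) had 1148, 1659 and 1357 CPM in knockout 1, 2 and 3, against 1027, 1315 and 1079 CPM in WT 1, 2 and 3. It too had a log2 fold change of 0.28 ± 0.16 (SE), and its adjusted edgeR p was 0.859. Knockout 2 stood above the other 5 libraries, and without it the value was 0.13.

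Of the thin filament genes, the tropomyosins lay along the groove of actin and caldesmon restrains myosin binding. Tpm1 (chr9:67022590-67049406, minus strand) had 1643, 2229 and 1954 CPM in knockout 1, 2 and 3, against 1574, 2210 and 1814 CPM in WT 1, 2 and 3. The 2 groups ran through almost the same range. The log2 fold change was 0.06 ± 0.17 (SE), with a 95% interval from -0.34 to 0.45 and an adjusted p of 0.968 in edgeR. Its sign turned without knockout 2 (-0.05) and without WT 1 (-0.05).

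Tpm2 (chr4:43514711-43523765, minus strand) had 1521, 2055 and 1878 CPM in knockout 1, 2 and 3, against 1264, 2114 and 1823 CPM in WT 1, 2 and 3. WT held both the highest and the lowest library. The log2 fold change was 0.07 ± 0.21 (SE), with a 95% interval from -0.42 to 0.56 and an adjusted p of 0.968 in edgeR. It was -0.03 without knockout 2 and -0.11 without WT 1. The intervals of both tropomyosins reach past the fold change of Flna on the log2 scale, so the data do not show that these messages were unchanged.

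Cald1 (chr6:34598500-34775473, plus strand), the caldesmon gene, had 1233, 1499 and 1390 CPM in knockout 1, 2 and 3, against 1232, 1291 and 1176 CPM in WT 1, 2 and 3. It was the gene whose WT libraries lay closest together, within 0.13 on the log2 scale, where Tpm2 spanned 0.74. With an adjusted edgeR p of 0.864, its log2 fold change was 0.16 ± 0.10 (SE), and it was 0.09 without knockout 2. Knockout 1 was level with WT 1, and the other knockout libraries lay above all of WT.

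At the plaque, Tln1 encodes talin-1, which binds the tails of beta integrins and switches them to the active state. Tln1 (chr4:43531519-43562691, minus strand) had 903, 975 and 959 CPM in knockout 1, 2 and 3, against 611, 764 and 682 CPM in WT 1, 2 and 3. Each knockout library exceeded each WT library, which was so for Tln1 alone among the 9 genes and for 6.48% of all genes tested. The means were 946 ± 37.9 CPM in the knockout and 686 ± 76.7 CPM in WT (SD, n = 3 each). This gave a log2 fold change of 0.46 ± 0.10 (SE), a 1.38-fold ratio with a 95% interval from 0.22 to 0.71 on the log2 scale. In edgeR its unadjusted p was 0.0030 and its adjusted p 0.693, and by p it stood at place 72 of the 16654 genes. The adjusted p of DESeq2's Wald test was 0.0049, and over all alternatives it ran from 0.0049 to 1.00. The fold change stayed between 0.39 and 0.55 when each library was left out in turn. Tln1 overlaps Creb3 on the opposite strand, and the kit named in the labels does not mark strand, but Creb3 had 2297 to 10557 estimated counts per library where Tln1 had 23167 to 104963. Vcl likewise overlaps Ap3m1, with 4392 to 17039 estimated counts against 35702 to 145240 for Vcl. Without strand, reads in exon sequence shared by such partners cannot be told apart. The overlaps are those of whole gene spans, and the shared exon sequence was not measured.

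Vcl encodes vinculin, which binds talin and actin and strengthens the plaque under load. Vcl (chr14:20929398-21033676, plus strand) had 1137, 1239 and 1180 CPM in knockout 1, 2 and 3, against 941, 1177 and 943 CPM in WT 1, 2 and 3. The knockout libraries were close together, and WT 2 lay among them. Vcl had a log2 fold change of 0.22 ± 0.12 (SE) with an adjusted p of 0.859 in edgeR, and 0.33 without WT 2. Talin stood higher relative to vinculin in the knockout: Tln1 minus Vcl within a library was -0.33, -0.35 and -0.30 in knockout 1, 2 and 3 and -0.62, -0.62 and -0.47 in WT 1, 2 and 3 on the log2 scale. Of all genes tested, 0.57% lay higher relative to Vcl in all 3 knockout than in all 3 WT libraries. The pair was chosen after the levels had been seen, and an exact permutation test of 3 against 3 libraries cannot go below p = 0.1, so no test is given.

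**Figure D2:**
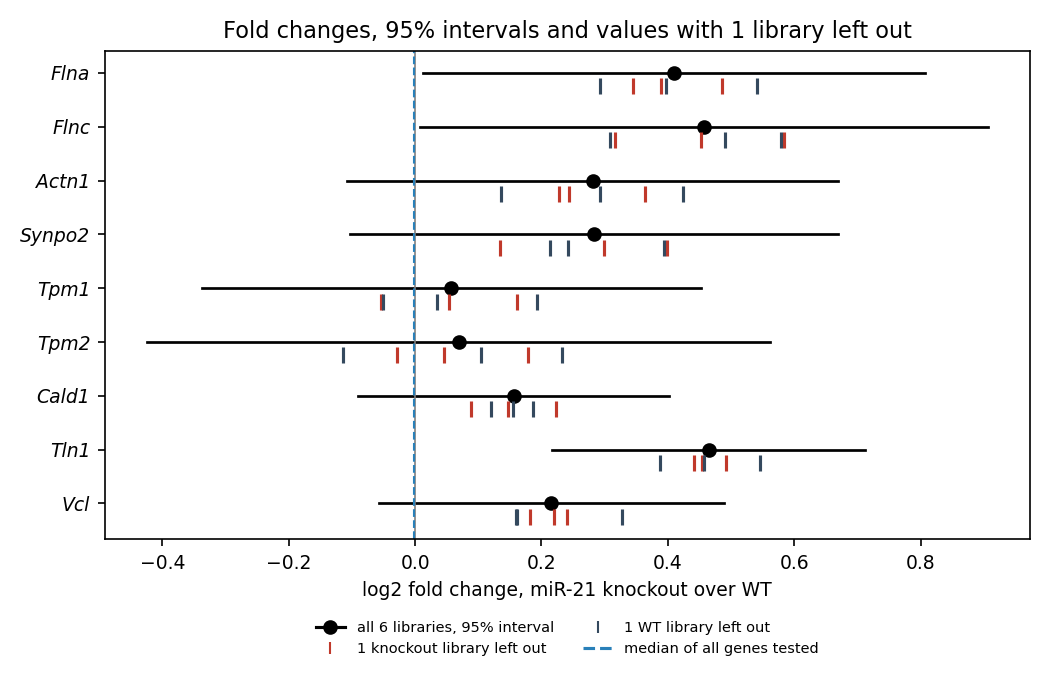
Log2 fold change of each gene, miR-21 knockout over WT (x axis), with the edgeR estimate (black point) and its 95% interval (black line). Ticks under each line give the value with 1 knockout library (red) or 1 WT library (dark blue) left out, and the dashed line is the median of all genes tested. Tln1 has the interval farthest from 0 (0.22 to 0.71), and ticks of Tpm1 and Tpm2 fall on both sides of 0.

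The sequence that bears on a direct effect of the microRNA is the seed of miR-21a-5p, bases 2 to 8, in capitals here. Beside it stand the matches found in the 3′ untranslated regions (UTRs) of the 9 genes, searched in every coding transcript of GENCODE M21 for ATAAGCT, the complement of the seed, and for TAAGCTA, the match to bases 2 to 7 followed by an A. Capitals mark the match, and each stretch is written along the strand of its gene.
miR-21a-5p (chr11:86584120-86584141, minus strand, RefSeq, GRCm38.p6): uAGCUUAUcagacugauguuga
Vcl (chr14:21033597-21033604, plus strand): aaaactatgtttATAAGCTAggacttata
Synpo2, ATAAGCT (chr3:123108864-123108870, minus strand): tagttatgtaacATAAGCTggcgtctttt
Synpo2, TAAGCTA (chr3:123108887-123108893, minus strand): gggaaacacgtcTAAGCTAtagctagtta

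Vcl and Synpo2 were the 2 genes of the 9 with ATAAGCT, which 8.56% of the 13184 tested genes with a searched 3′ UTR hold in at least 1 transcript. The Vcl match is the longer form that joins both motifs, and it starts at base 1864 of a 3′ UTR of 1943 bases. Synpo2 holds its matches in 3 of 6 transcripts with a 3′ UTR, in the longest of which that region has 5799 bases. Neither motif was present in any of the 16 searched transcripts of Tpm1, whose longest 3′ UTR has 1899 bases. Tln1, Flna, Flnc, Actn1, Tpm2 and Cald1 held neither motif as well. The fold changes of the genes with a match (0.22 for Vcl and 0.28 for Synpo2 on the log2 scale) lay inside the range of the 7 genes without one, 0.06 to 0.46. The 3 largest fold changes of the set belonged to genes without either motif. With matches in 2 genes only, a direct effect of miR-21 was not tested. The loss of miR-21 itself was not checked here. Vmp1, the gene whose end overlaps the miR-21 locus, had 77.1, 61.4 and 65.7 CPM in knockout 1, 2 and 3 and 87.0, 58.3 and 63.7 CPM in WT 1, 2 and 3, and a whole-gene value of Vmp1 does not measure the microRNA.

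For the promoters, RefSeq windows of 300 bases (250 before to 50 after a start, GRCm38.p6) were found for all 9 genes, 11 windows in all. Both strands were searched for the CArG box that serum response factor binds, CC and GG with a run of 6 A or T bases between them, and for CATTCC, the muscle-CAT motif bound by TEAD factors. Vcl alone held a CArG box (capitals), which 1.63% of 32851 promoter windows of the same length hold. The window is shown because it is the only one of the 11 with that motif.
Vcl promoter (chr14:20929148-20929447, plus strand): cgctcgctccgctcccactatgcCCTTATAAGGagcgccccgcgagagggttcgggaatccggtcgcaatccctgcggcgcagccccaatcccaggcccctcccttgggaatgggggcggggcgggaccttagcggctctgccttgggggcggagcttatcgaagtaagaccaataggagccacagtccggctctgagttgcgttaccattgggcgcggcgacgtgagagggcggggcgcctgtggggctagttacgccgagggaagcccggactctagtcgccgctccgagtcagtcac
The first base of the box lies at -227 from the start. CATTCC or its complement was in 6 of the 11 windows (Flna, both windows of Flnc, Tpm1, 1 of 2 windows of Cald1, and Vcl), against 14.7% of all windows. The windows of Flnc overlap and share 1 match, so the matches are 5 separate sites in 5 genes. These matches are letters in a window and say nothing about binding. Serum response factor and its coactivators were measured as messages: Myocd had 238 ± 30.2 CPM in the knockout and 185 ± 32.2 CPM in WT, a log2 fold change of 0.36 ± 0.15 (SE), and Srf had 69.2 ± 4.36 and 65.0 ± 3.52 CPM with 0.09 ± 0.07. The coactivator gene Mkl2 had 0.10 ± 0.09, and none of the 4 tested genes of that list passed the adjusted edgeR threshold.

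The levels of the 9 genes moved together from library to library. In the knockout, library 1 was the lowest for all 9 genes and library 2 the highest for 8. In WT, library 1 was the lowest for 8 genes and library 2 the highest for all 9. Averaged over the 9 genes, the log2 CPM relative to the mean of the 6 libraries was -0.05, 0.29 and 0.17 in knockout 1, 2 and 3 and -0.35, 0.09 and -0.14 in WT 1, 2 and 3. Within each group, the libraries ranked alike for 8 smooth muscle markers (Myh11, Acta2, Tagln, Cnn1, Lmod1, Smtn, Mylk and Myl9). The values of these markers were -0.16, 0.22 and 0.16 in the knockout and -0.36, 0.17 and -0.04 in WT. The order over all 6 libraries was not the same. Adventitial fibroblast markers ran the other way, with 0.56, -0.70 and -0.47 in the knockout and 0.84, -0.58 and 0.34 in WT. Of 11 tested fibroblast markers 10 had log2 fold changes below 0, 0 passed the adjusted edgeR threshold, and their summed level was 1428 to 5629 CPM in the knockout and 3088 to 6929 CPM in WT, most of it Lum and Dcn. Their part in the differences of the 9 genes was not tested. In bulk samples, fewer cells of a type and less RNA per cell cannot be told apart.

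**Figure D3:**
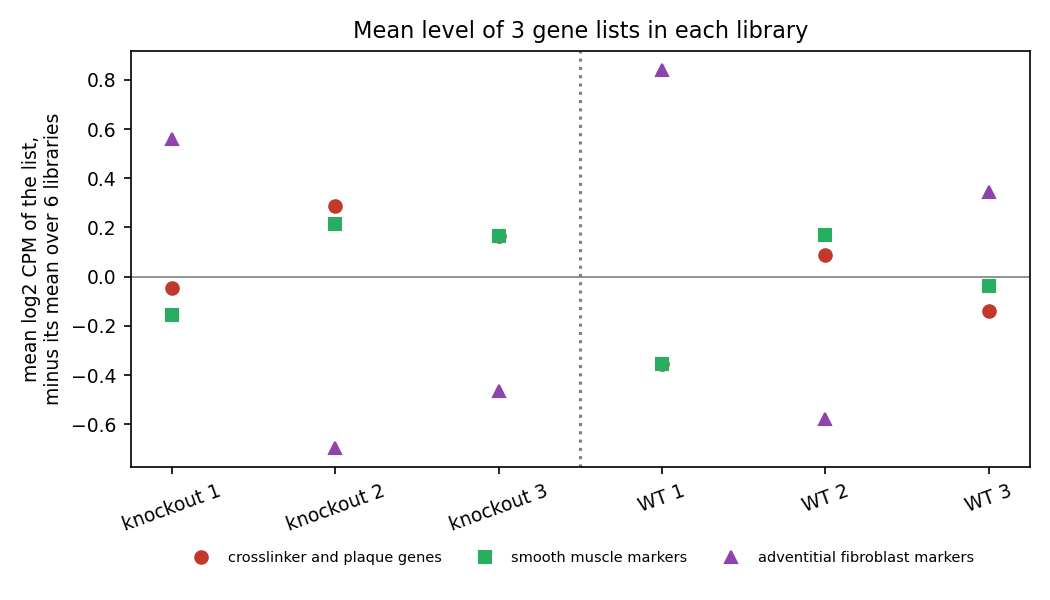
Mean log2 CPM of 3 gene lists in each library, less the mean of that list over the 6 libraries (y axis), with the knockout libraries left of the dotted line. The 9 crosslinker and plaque genes (red) and the smooth muscle markers (green) are lowest in WT 1 (-0.35 and -0.36), where the adventitial fibroblast markers (purple) are highest (0.84).

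The summed fibroblast marker level was 5629, 1428 and 1968 CPM in knockout 1, 2 and 3. In WT 1, 2 and 3 it was 6929, 3088 and 6121 CPM. The groups overlap in that level only through knockout 1, so without libraries 1 they are apart in it. The part of that level in the fold changes below was not tested. Libraries 1 of both groups had the highest fibroblast marker level in their group. With both left out, a choice made after seeing the data, the log2 fold change was 0.42 ± 0.10 for Tln1, 0.44 ± 0.11 for Flnc and 0.37 ± 0.15 for Flna (SE, 2 libraries a group), 8 of the 9 genes were above 0, and Tpm2 was at -0.0026. The median of the 9 was then 0.23, with 0 of them past the adjusted edgeR threshold. It was 0.16 without WT 1 and 0.18 without knockout 2, when 7 of the 9 were above 0, and 0.39 without WT 2. Markers of other cells were low. Of the macrophage markers 7 were tested, with 5 above and 2 below 0. Their summed level was 33.4, 17.4 and 7.45 CPM in knockout 1, 2 and 3. In WT 1, 2 and 3 it was 32.9, 9.35 and 13.5 CPM. Like the fibroblast level, it was highest in library 1 of each group. The 8 endothelial markers summed to 61.8 to 71.5 CPM in the knockout and 61.3 to 68.7 CPM in WT, of which Pecam1 made up 59.5 and 59.1 CPM on average, while Cdh5 was at 0.296 and 0.264 CPM. Of 8 listed adipocyte markers only Lipe and Fabp4 were tested, with summed levels of 44.3 to 58.9 CPM in the knockout and 42.4 to 55.9 CPM in WT. The 9 tested striated muscle markers summed to 118 to 201 CPM in the knockout and 212.7 to 240 CPM in WT, mostly desmin, which smooth muscle also makes. Its gene Des was lower in each knockout library than in each WT library. The share of all genes tested that were lower in this way is not given here. Des had 97.7, 148 and 173 CPM in knockout 1, 2 and 3 and 183, 201 and 190 CPM in WT 1, 2 and 3. The log2 fold change of Des was -0.45 ± 0.20 (SE), with an adjusted edgeR p of 0.835.

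Set against the smooth muscle markers of the same library, which removes any difference in scaling, 4 of the 9 genes stood apart. The mean level of the 9 relative to the 8 markers was -1.14 ± 0.05 in the knockout and -1.26 ± 0.06 in WT on the log2 scale (SD, n = 3 each), a difference of 0.12. The groups did not overlap, but only just, with knockout 3 at -1.197 and WT 1 at -1.198. Flna lay 1.90, 1.82 and 1.80 above the markers in knockout 1, 2 and 3 and 1.601, 1.58 and 1.53 above them in WT 1, 2 and 3. The gap between the groups was wider than the spread within either. Tln1 was at -1.51, -1.77 and -1.74 in the knockout and at -1.87, -2.08 and -2.04 in WT, Flnc at -3.55, -3.37 and -3.55 against -3.85, -3.80 and -3.75, and Actn1 at -1.86, -1.97 and -1.89 against -2.09, -2.02 and -2.04. These 4 genes were higher relative to the markers in all knockout than in all WT libraries, as were 1.05% of all genes tested. Among the abundant genes (mean log2 CPM of at least 5) the share was 0.951%. In the same sense 3.08% of all genes tested were lower, and 0 of the 9.

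The thin filament genes showed no such gap, but the reference is not separate from them. The markers Acta2, Tagln, Cnn1, Lmod1 and Smtn are thin filament genes too, so this contrast with the crosslinkers is in part built in. Tpm1 was at -0.65 ± 0.07 relative to the markers in the knockout and at -0.56 ± 0.06 in WT (SD, n = 3 each), Tpm2 at -0.74 ± 0.04 and -0.68 ± 0.12, and Cald1 at -1.14 ± 0.07 and -1.14 ± 0.25. Synpo2 (-1.14 ± 0.12 and -1.26 ± 0.13) and Vcl (-1.35 ± 0.15 and -1.42 ± 0.16) overlapped as well. The per-gene ratios were computed after the levels had been seen, and they depend on the marker: with each of the 8 markers used alone, the knockout exceeded WT in every library for Flna and Flnc with 7 markers, for Tln1 with 6, for Actn1 with 5 and for Synpo2 with 1. Against Myh11 alone, which itself had a log2 fold change of 0.29 ± 0.19 (SE), Flnc was the only one of the 9 genes to do so.

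**Figure D4:**
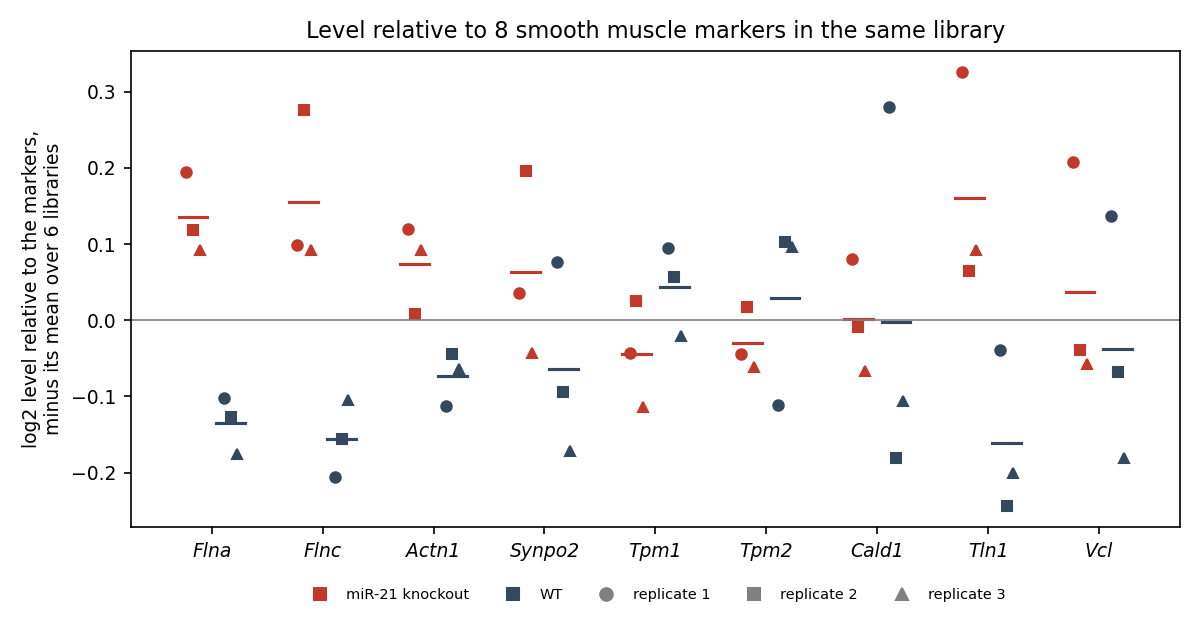
Level of each gene relative to the mean of 8 smooth muscle markers in the same library, less the mean of that value over the 6 libraries (y axis, log2). Red is miR-21 knockout, dark blue WT, shapes give the replicate number and short lines the group means. All red points lie above all dark blue points for Flna, Flnc, Actn1 and Tln1, and the colours mix for the other 5 genes.

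Relative to Tpm1, chosen after its fold change was seen to be the nearest to 0, 5 genes were higher in all knockout than in all WT libraries, against 2.13% of all genes tested. Flna minus Tpm1 was 2.54, 2.40 and 2.51 in knockout 1, 2 and 3 and 2.11, 2.12 and 2.15 in WT 1, 2 and 3 on the log2 scale. Tln1 minus Tpm1 was -0.86, -1.19 and -1.03 in the knockout and -1.36, -1.53 and -1.41 in WT. The other 3 were Flnc, Actn1 and Synpo2, with differences between the group means of 0.40, 0.24 and 0.21. Vcl, Tpm2 and Cald1 overlapped between the groups relative to Tpm1. A ratio within a library shows unequal change of the 2 messages and not which of them changed.

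Per kilobase of merged exon, Flna was the most abundant of the 9, with 1152 ± 120 CPM per kilobase in the knockout and 868 ± 151 in WT (SD, n = 3 each). Tpm2 followed with 625 ± 93.4 and 596 ± 148 CPM per kilobase, and Tpm1 with 299 ± 45.2 and 288 ± 49.6. Actn1 (146 ± 15.7 and 120 ± 24.4), Vcl (145 ± 6.29 and 125 ± 16.6), Cald1 (114.1 ± 11.1 and 102.4 ± 4.74) and Synpo2 (106 ± 19.6 and 87.1 ± 11.7) came next. Within the knockout Actn1 and Vcl overlapped each other, Cald1 and Synpo2 overlapped each other, and the Actn1 and Vcl libraries lay above those of Cald1. Tln1 had 96.5 ± 3.87 CPM per kilobase in the knockout and 69.9 ± 7.82 in WT, and Flnc came last with 28.9 ± 5.42 and 21.05 ± 4.16. Merged exons count every isoform, so these levels are too low for genes with many alternative exons, such as the tropomyosins and Cald1.

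The make-up of the families was similar in both groups. Tln1 made up 99.3% ± 0.229 in the knockout and 99.2% ± 0.243 in WT of talin message per exon length (SD, n = 3 each). Actn1 gave 30.6% ± 1.83 in the knockout and 29.7% ± 2.30 in WT of alpha-actinin message, most of the rest being the broadly expressed Actn4 (68.8% in the knockout and 69.5% in WT). Tpm2 gave 53.9% ± 3.86 of tropomyosin message in the knockout and 50.4% ± 7.68 in WT, and Tpm1 gave 25.8% ± 1.96 in the knockout and 24.5% ± 1.81 in WT. Tpm4, a tropomyosin of non-muscle cells, gave 18.3% ± 5.30 in the knockout and 22.8% ± 8.44 in WT. Synpo2 gave 56.8% ± 6.05 of synaptopodin message in the knockout and 51.4% ± 3.37 in WT. For each of these shares the group means differed by less than the larger of the 2 SDs, and none was tested. Estimated counts divide reads among similar genes, so the split between paralogs such as the tropomyosins is uncertain.

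**Figure D5:**
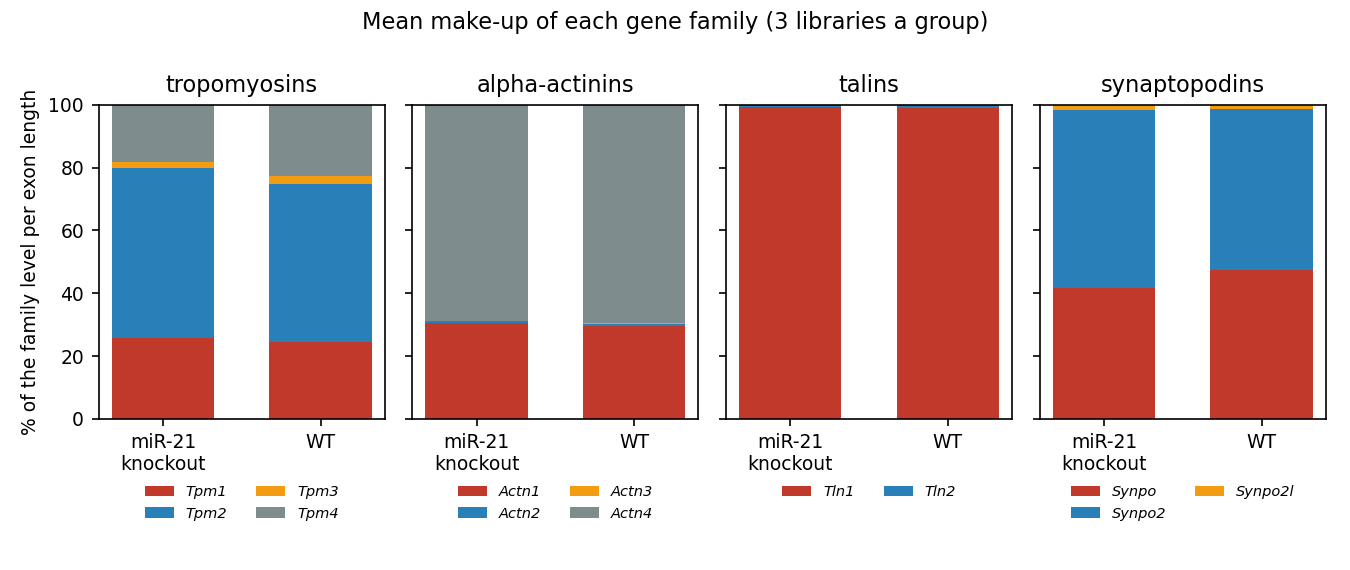
Mean share of each paralog in the level of its family per exon length (y axis, % from 0 to 100), in miR-21 knockout (left bar) and WT (right bar) libraries, 3 a group. Tln1 (99.3% in the knockout and 99.2% in WT) dominates its family, and the make-up differs little between the groups.

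Other genes of the same structures were read from lists drawn up from general knowledge of smooth muscle. Of 15 tested crosslinking and bundling genes beyond the 9, 8 were above and 7 below 0 with a median log2 fold change of 0.07, and 0 passed the adjusted edgeR threshold. The smallest p belonged to Sptan1, an alpha-spectrin, with 292 ± 11.9 CPM in the knockout and 248 ± 17.8 CPM in WT (SD, n = 3 each; log2 fold change 0.24 ± 0.08, SE). Next came Actn4 (0.23 ± 0.11) and Palld, which encodes palladin, an actin-bundling partner of alpha-actinin (0.15 ± 0.09).

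Of 35 tested adhesion plaque genes beyond Tln1 and Vcl, 27 were above and 8 below 0 with a median of 0.14, the unadjusted edgeR p was below 0.05 for 4 higher genes and 0 lower ones, against 3.95% higher and 2.01% lower over all genes tested, and 0 passed the adjusted threshold. Sorbs2, an adaptor that binds vinculin, had 188 ± 5.31 CPM in the knockout and 152 ± 14.04 CPM in WT (SD, n = 3 each; log2 fold change 0.30 ± 0.08, SE). Svil, which encodes supervillin, had 0.37 ± 0.11, and Tns1, which encodes the integrin-binding tensin-1, had 2665 ± 262 CPM in the knockout and 2209 ± 115 CPM in WT (0.27 ± 0.11). Of 15 tested thin filament genes beyond the 9, 9 were above and 6 below 0 with a median of 0.03. Acta2, Tagln, Cnn1, Lmod1 and Smtn are in that list and also among the smooth muscle markers. The smallest p there belonged to Tmod2 (0.17 ± 0.11), Tpm3 (-0.23 ± 0.17) and Tpm4 (-0.32 ± 0.23), and no gene of that list had an unadjusted p below 0.05 in edgeR. Each count is given beside 49.4% of all genes tested above 0, and no list was tested as a set.

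The 5 genes outside the 9 whose library profile lay closest to their mean, by the root mean square difference of log2 CPM centred over the 6 libraries, were 2310022A10Rik (0.031), Snrk (0.031), Itga8 (0.032), Rcan2 (0.034) and Pkp4 (0.040), out of 5351 genes with a mean log2 CPM of at least 5. Itga8, an integrin subunit of vascular smooth muscle, had 4853, 5946 and 5383 CPM in knockout 1, 2 and 3 and 4025, 5230 and 4514 CPM in WT 1, 2 and 3. All 5 shared the low knockout 1 and WT 1 of the 9 genes, and their log2 fold changes lay between 0.21 and 0.25 with adjusted edgeR p of 0.859 to 0.864. Both traits follow from choosing the genes by that profile.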

How the data were processed

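The deposited table holds the authors' estimated counts, not normalized, for each gene in 6 libraries. The submitters' processing notes name mm10, STAR 2.6 and DESeq2 without saying what each did. Which tool and annotation gave the counts is not given in the sources used here. Columns were matched to samples by the sample code, and 0 per-sample columns were left over. Library totals ran from 37787465 to 154384307 estimated counts, and the 9 genes had 5875 to 1240000 counts per library, so counting error was small beside the spread between libraries.

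Counts were rounded, filtered by filterByExpr, scaled by TMM (factors 0.987 to 1.02) and tested over 16654 genes with edgeR 4.0.16 (robust quasi-likelihood F test, two-sided, Benjamini-Hochberg, threshold 0.05) in R 4.3.3. Logarithms used CPM plus 0.1. Alternatives were DESeq2 1.42.0, limma 3.58.1 with sample weights, other scalings and filters, the replicate number as a block and leaving out each library. The smooth muscle, adventitial fibroblast, endothelial, macrophage, adipocyte and striated muscle markers and the lists of related genes were fixed together with the rule for named genes: the 9 members, 3 per related list by smallest p, 5 by closest profile, and the miR-21 locus, of which Mir21a itself is not analysed here. The members and lists were chosen with earlier results of these data known. The edgeR fit was checked on simulated counts with known changes. GENCODE M21 (GRCm38, the assembly of mm10) gave exons and 3′ UTRs: 21548 genes matched by position, with the deposited end lowered by 1, and 1347 by symbol. Figures used matplotlib 3.10.9. Of the related lists, 1 gene is not reported here and was left out of the lists and family shares.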

Additional observations from a re-analysis of the deposited data

How the results depend on the processing

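Without each library in turn, the count of genes called by edgeR was 0 to 1, of members called 0 to 0, of members above 0 it was 7 to 9, their median log2 fold change 0.16 to 0.39, and their level relative to the smooth muscle markers 0.10 to 0.15 (log2). DESeq2's Wald test called 73 genes, 1 of the 9 among them (Tln1). The fit without knockout 1 and the fit with the replicate number as a block called 1 gene each, none of the 9. Whether the replicate numbers pair the libraries is not settled: deviations of same-numbered libraries correlated at 0.46, 0.59 and -0.03. Knockout 1 correlated best with WT 1 and knockout 2 with WT 2, while knockout 3 also correlated best with WT 2 (0.17). Deviations from a mean of 3 libraries depend on each other. With the number as a block, the standard error fell from 0.19 to 0.05 for Flnc and from 0.10 to 0.06 for Tln1. With the replicate block 6 of the 9 were higher at an unadjusted p under 0.05, as were 1189 of all genes tested, the adjusted p was 0.092 for Flnc and 0.093 for Tln1, and the block turned no sign. Signs turned for Tpm1 without knockout 2 (-0.054) and without WT 1 (-0.052), and for Tpm2 without knockout 2 (-0.029), without WT 1 (-0.11) and, in an alternative added after seeing the data, without both libraries numbered 1 (-0.0026). The cause was not tested. With the threshold at 0.1, the edgeR test as reported called 0 genes. With upper-quartile scaling the median of all genes was -0.015. In that edgeR fit 1 of the 9 genes was higher at an unadjusted p under 0.05, as were 538 of all genes tested. Without WT 2, Tpm1 was at 0.19 and Tpm2 at 0.23. Other scalings and filters changed no direction or call among the 9. The median standard error of the 9 log2 fold changes was 0.164, against 0.136 over all genes tested, and what limited the calls was not tested.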
